A study of Mus musculus with 8 samples.

Results

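Genes of the ATR checkpoint and of homologous recombination are described here, 9 of the 55487 gene identifiers in the count table: Atr, Chek1, Clspn, Rpa1, Rpa2, Brca1, Brca2, Blm and Rad54l. They were chosen by name, for the roles of their products in the checkpoint that answers stalled DNA replication and in homologous recombination. The rule used no values of these genes, but earlier results of these data were known when they were chosen. MuSCs (muscle stem cells) were sorted by FACS from the muscles of aged wild-type male C57BL/6JRj mice as lineage-negative (CD31, CD45, CD11B and SCA1 negative), CD34+ITGA7+ cells. For 72 hours the sorted cells grew in medium with nicotinamide and pyridoxine (NAM/PN, forms of vitamin B3 and vitamin B6, labelled at 1 mM) or with vehicle alone (1% DMSO). The age label reads only "Old". For aged mice of an MuSC proliferation assay the study's methods give 23 to 24 months, slightly narrower than for the in vivo experiments. That assay ran for 4 days with 0.5% DMSO, so its conditions differ from the labelled ones used here and its age range may not be that of these mice. Each of the 4 pools combined the cells of 2 mice, 8 mice in all, and gave 1 library per condition, so each pool number names a vehicle and a NAM/PN library of the same mice. No young cells and no cells treated with NAM or PN alone are compared here.

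When a replication fork stalls, single-stranded DNA is coated by the RPA complex, of which RPA1 and RPA2 are subunits. The kinase ATR is recruited to this DNA and, with the mediator claspin (Clspn), activates the kinase CHK1 (Chek1), which slows the cell cycle and protects forks. Broken DNA is then repaired by homologous recombination, in which BRCA1 and BRCA2 act at the early steps, RAD54 (Rad54l) acts in strand exchange and the helicase BLM resolves recombination intermediates. MuSCs leave quiescence and divide in growth medium, and dividing cells express many of these genes around S phase.

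Libraries held between 6472484 and 10163101 reads counted on genes, and 12060 genes passed the filter on low counts. All 8 listed muscle stem cell and myoblast markers, Pax7, Myod1 and Itga7 among them, were detected in every library, with a summed level of 2909 to 3369 CPM (counts scaled to a common normalized library size) with vehicle and 2335 to 2929 CPM with NAM/PN. Other lineages were checked in the same way. Of the immune markers, 6 of 8 listed, Ptprc included, were at 0 in all libraries. Markers of differentiating myocytes moved with the treatment: of 10, all tested, 7 fell (edgeR, as described next; 0.995% of all tested genes did) and 0 rose, 8 fell with a replicate block for the pools (Ttn in addition), and their summed level was 1772 to 3526 CPM with vehicle against 394 to 975 CPM with NAM/PN. Of 8 fibro-adipogenic markers, 3 were tested and 2 fell (Gsn and Col3a1), with sums of 267 to 339 CPM against 72.8 to 127 CPM, while Pdgfra, Lum and Dpt were at 0 in all libraries. Of 8 mural and smooth muscle markers, 3 were tested and 1 fell (Acta2), with sums of 285 to 611 CPM against 95.9 to 156 CPM, and Myh11 was at 0 in all libraries. Endothelial markers summed to at most 11.8 CPM in any library, and 0 of 8 were tested. The part of these shifts in the values below was not tested, and in bulk RNA fewer cells of a type and less RNA per cell cannot be told apart.

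All 9 genes were expressed and passed the filter. They were tested with edgeR's quasi-likelihood method, and p-values were adjusted by Benjamini-Hochberg over the whole table. At the threshold of 0.05, 0 of the 9 changed with NAM/PN, against 1.28% of tested genes, and a fit with a replicate block for the pools also gave 0 of 9, against 1.29%. At an unadjusted p under 0.05, 1 of the 9 was higher with NAM/PN, against 3.96% of tested genes, and DESeq2 called 0 of the 9 (2.4% of tested genes) and had 1 higher at the unadjusted threshold (4.05%). That count of 1 at the unadjusted threshold was 0 with the replicate block, with upper quartile factors and in a robust fit, and 2 when counts were scaled by library totals alone. The estimated log2 fold change (log2FC, NAM/PN against vehicle) was above 0 for 9 of 9 genes, with a median of 0.37 and a range from 0.05 to 0.82. Across all tested genes 49.8% had a value above 0 and the median was -0.0022. For 1 of the 9 genes, Chek1, every NAM/PN library lay above every vehicle library, which held for 2.79% of tested genes.

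**Figure D1:**
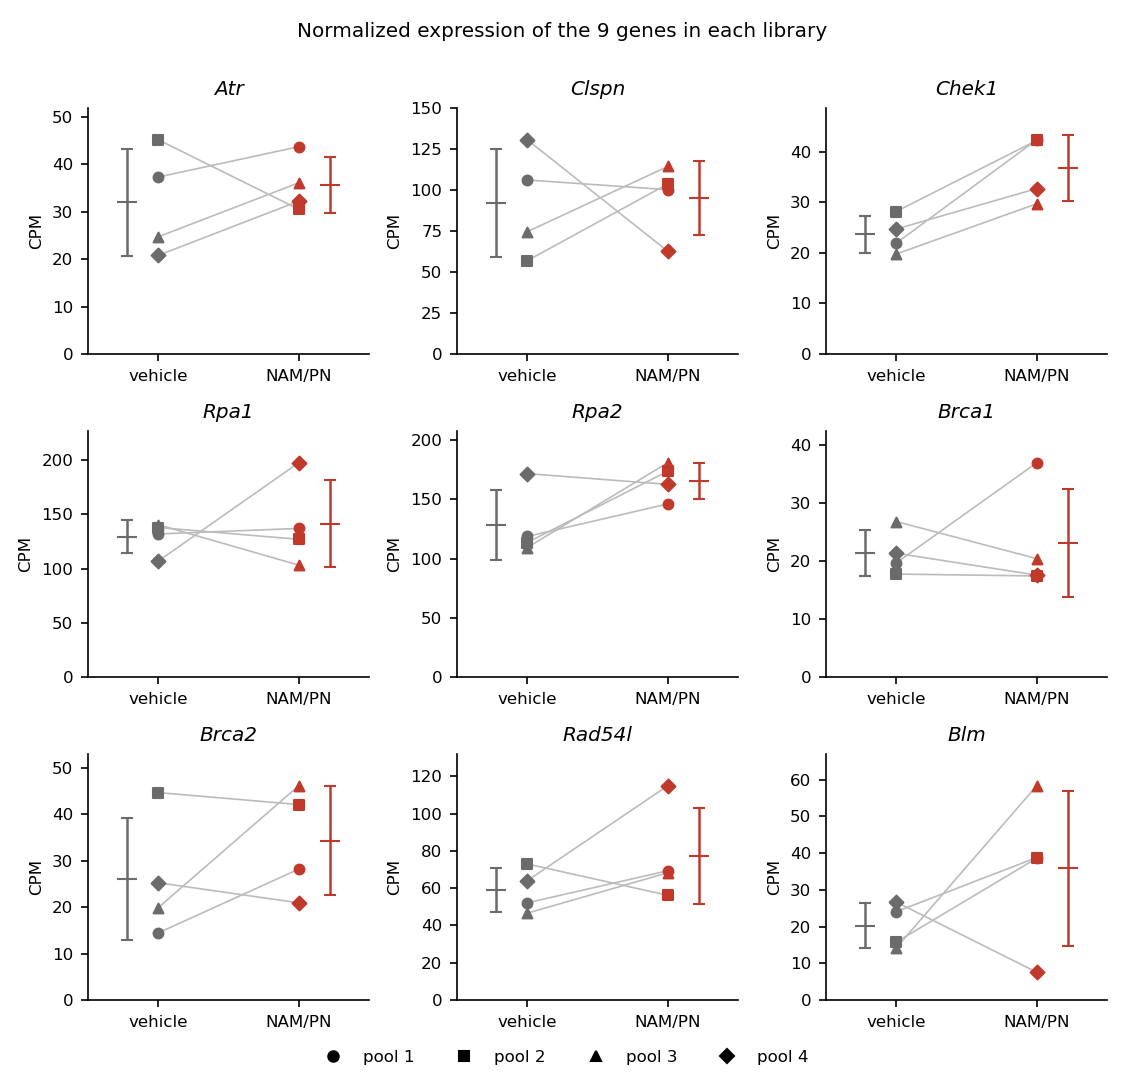
Normalized expression in CPM (vertical axes, each from 0) of the 9 genes in the 4 vehicle libraries (grey) and the 4 NAM/PN libraries (red). Symbols mark the pool, grey lines join libraries of the same pool, and the bars beside the points are mean and SD. Only in the panel of Chek1 do the red points all lie above the grey ones.

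RPA is the first of these proteins on exposed single-stranded DNA. Rpa1, the gene of its large DNA-binding subunit (ENSMUSG00000000751, chr11:75298166-75348324 of GRCm38, minus strand), was measured at 132, 138, 141 and 107 CPM with vehicle in pools 1 to 4 and at 137, 127, 103 and 198 CPM with NAM/PN. The conditions overlapped, and the highest value came from NAM/PN pool 4, which had been the lowest pool with vehicle. The mean was 129 ± 15.4 CPM (SD, n = 4) in vehicle libraries and 141 ± 40.2 CPM (SD, n = 4) in NAM/PN libraries, with a log2FC of 0.13 (SE 0.21, adjusted p = 0.955 in edgeR). Without NAM/PN replicate 4 the estimate was -0.079.

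Rpa2 encodes the RPA subunit that is phosphorylated during replication stress (ENSMUSG00000028884, chr4:132768332-132778752, plus strand). It was measured at 119, 114, 109 and 172 CPM in vehicle libraries and at 146, 174, 181 and 163 CPM in treated libraries. A single vehicle library, that of pool 4, kept the conditions from separating, since the other 3 vehicle values lay below all 4 NAM/PN values. The means were 128 ± 29.2 CPM and 166 ± 15.1 CPM (SD, n = 4 each), with a log2FC of 0.37 (SE 0.19, 95% interval -0.028 to 0.77) that did not pass the adjustment (adjusted p = 0.599 in edgeR). Without vehicle replicate 4 the log2FC was 0.53 and still not called (adjusted p = 0.397 in edgeR). The log2 ratio of Rpa2 to Rpa1 within a library was on average 0.30 higher with NAM/PN than with vehicle, less than its SD of 0.48 with vehicle and 0.47 with NAM/PN (two-sided exact permutation test, p = 0.371, adjusted p = 0.743 over 4 ratios; the smallest p that 4 against 4 libraries allow is 0.0286).

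Atr, the gene of the apical kinase of the checkpoint (ENSMUSG00000032409, chr9:95857597-95951781, plus strand), was measured at 37.3, 45.2, 24.7 and 20.8 CPM in vehicle libraries and at 43.7, 30.5, 36.1 and 32.2 CPM in treated libraries. The NAM/PN values all lay within the spread of the vehicle values, and the treated libraries lay closer together. Means were 32.0 ± 11.3 CPM and 35.6 ± 5.86 CPM (SD, n = 4 each), and the log2FC was 0.16 (SE 0.31, adjusted p = 0.966 in edgeR). Without vehicle replicate 4 it was -0.012, and without vehicle replicate 2 it was 0.37. An antisense gene, Gm16794, covers the 3′ end of Atr where these libraries are read, and it held between 0 and 13 counts per library against 191 to 364 for Atr. The strand setting of the counting is not given in the sources used here, so reads of Atr and of its antisense gene may not be fully separated.

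Claspin bridges ATR and CHK1 at the fork. Clspn (ENSMUSG00000042489, chr4:126556935-126593903, plus strand) was measured at 106, 56.8, 74.5 and 130 CPM in vehicle libraries and at 100, 104, 114 and 62.6 CPM in treated libraries. Pools went opposite ways, with higher values under NAM/PN in pools 2 and 3 and lower values in pools 1 and 4. The means of 91.9 ± 32.8 CPM and 95.1 ± 22.5 CPM (SD, n = 4 each) gave a log2FC of 0.05 (SE 0.26, 95% interval -0.49 to 0.58, adjusted p = 0.990 in edgeR), the nearest to 0 of the 9 genes. Its sign turned when single libraries were left out. A pseudogene inside Clspn on the opposite strand, Gm12936, had means of 0 CPM in vehicle libraries and 7.40 CPM in NAM/PN libraries. The limit of the unknown strand setting named for Atr holds for this pair too.

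Chek1 encodes CHK1, the effector kinase that ATR activates (ENSMUSG00000032113, chr9:36708482-36727065, minus strand). It was measured at 21.9, 28.2, 19.8 and 24.7 CPM in vehicle libraries and at 42.3, 42.2, 29.7 and 32.7 CPM in treated libraries. All 4 treated libraries were above all 4 vehicle libraries, and within each of the 4 pools the treated value was higher, by 0.40 to 0.94 on the log2 scale. The mean was 23.6 ± 3.64 CPM (SD, n = 4) in vehicle libraries and 36.7 ± 6.52 CPM (SD, n = 4) in NAM/PN libraries, a fold of 1.55 (95% interval 1.01 to 2.40). The log2FC of 0.64 (SE 0.30) had an unadjusted p of 0.0468 in edgeR and did not pass the adjustment (adjusted p = 0.527). In the fit with the replicate block the unadjusted p was 0.0644 and the adjusted p was 0.588. Chek1 ranked 1071 of 12060 tested genes by p-value. The estimate stayed between 0.52 and 0.73 under 20 alternatives, with adjusted p-values from 0.358 to 0.875. The log2 ratio of Chek1 to Atr, effector to sensor kinase, was 0.42 higher with NAM/PN, a difference that an exact permutation test did not separate from the spread between libraries (two-sided p = 0.171, adjusted p = 0.686).

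**Figure D2:**
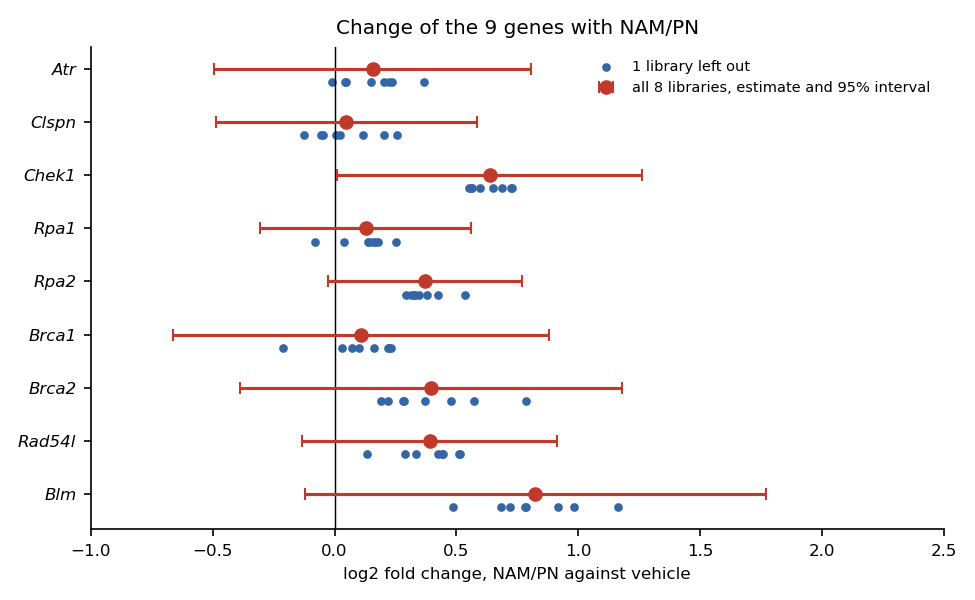
Log2FC of each gene with NAM/PN against vehicle (horizontal axis), as the estimate from all 8 libraries with its 95% interval (red) and as the estimates with 1 library left out (blue). Of the 9 intervals, that of Chek1 alone lies above 0, from 0.010 to 1.26, before any adjustment for the number of genes tested.

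Among the recombination genes, Brca1 (ENSMUSG00000017146, chr11:101488764-101551955, minus strand), whose product acts in DNA end resection, was measured at 19.7, 17.7, 26.8 and 21.3 CPM with vehicle. With NAM/PN it was measured at 36.9, 17.4, 20.4 and 17.6 CPM. One treated library, pool 1, was high, and in the other 3 pools the treated value was below the vehicle value. The means of 21.4 ± 3.90 CPM and 23.1 ± 9.34 CPM (SD, n = 4 each) gave a log2FC of 0.11 (SE 0.37, adjusted p = 0.985 in edgeR), and without NAM/PN replicate 1 it was -0.21.

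Brca2 (ENSMUSG00000041147, chr5:150522630-150570329, plus strand) encodes a protein that binds single-stranded DNA during recombination. Its values were 14.4, 44.7, 19.9 and 25.2 CPM in vehicle libraries and 28.2, 42.1, 46.1 and 20.9 CPM in treated libraries. Vehicle pool 2 was close to the highest treated libraries, and pools 1 and 3 were higher with NAM/PN while pools 2 and 4 were lower. The coefficient of variation with vehicle was 50.5%, against a median of 28.0% for the 2197 genes within 0.5 of its average log2 CPM. Means were 26.1 ± 13.2 CPM and 34.3 ± 11.8 CPM (SD, n = 4 each), and the log2FC was 0.40 (SE 0.37, adjusted p = 0.877 in edgeR). It was 0.19 without vehicle replicate 1, 0.22 without NAM/PN replicate 3 and 0.79 without vehicle replicate 2. The log2 ratio of Brca2 to Brca1 was 0.40 higher with NAM/PN (two-sided exact permutation p = 0.571, adjusted p = 0.762).

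Rad54l, a gene of a DNA translocase of recombination (ENSMUSG00000028702, chr4:116094264-116123690, minus strand), was measured at 52.1, 73.0, 46.6 and 64.0 CPM in vehicle libraries and at 69.3, 56.2, 68.2 and 115 CPM in treated libraries. The highest value, in NAM/PN pool 4, stood above all others, and the remaining treated values overlapped with vehicle. Means were 58.9 ± 11.9 CPM and 77.1 ± 25.9 CPM (SD, n = 4 each), with a log2FC of 0.39 (SE 0.25, adjusted p = 0.747 in edgeR) that was 0.13 without NAM/PN replicate 4. The 3′ end of Rad54l overlaps Lrrc41 on the opposite strand over 2780 bases, and Lrrc41 held 76 to 236 counts per library against 377 to 1230 for Rad54l. The same limit of the unknown strand setting holds for this pair.

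Blm encodes the RecQ helicase that is deficient in Bloom syndrome (ENSMUSG00000030528, chr7:80454733-80535119, minus strand). Its values were 24, 15.8, 14.2 and 26.7 CPM in vehicle libraries and 38.8, 38.6, 58.3 and 7.57 CPM in treated libraries. Of all members Blm had both the largest estimate and, relative to its mean, the widest spread between treated libraries. Of these, 3 treated libraries lay above all vehicle libraries and the fourth, with 81 counts, lay below all vehicle libraries. The means of 20.2 ± 6.12 CPM and 35.8 ± 21 CPM (SD, n = 4 each) gave a log2FC of 0.82 (SE 0.45, 95% interval -0.12 to 1.77, adjusted p = 0.652 in edgeR). The coefficient of variation among treated libraries was 58.6%, against a median of 32.6% for the 2176 genes within 0.5 of its average log2 CPM. Without NAM/PN replicate 4 the log2FC was 1.16 (adjusted p = 0.119 in edgeR), and without NAM/PN replicate 3 it was 0.48 (adjusted p = 0.891 in edgeR). The log2 ratio of Blm to Rad54l, at -0.83, -0.54, -0.23 and -3.88 with NAM/PN, was 0.19 higher on average than with vehicle (two-sided exact permutation p = 0.886, adjusted p = 0.886). A pseudogene, Ndufab1-ps, lies inside Blm on the opposite strand, away from the 3′ end. It held 87 to 544 counts per library against 81 to 383 for Blm, and the limit of the unknown strand setting holds here too.

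The genes did not move together in every pool. Of the 9, 8 were higher with NAM/PN than with vehicle in pool 1, with a median log2 difference of 0.41, and 7 were higher in pool 3, with a median of 0.58. In pools 2 and 4 only 4 of 9 were higher, and the medians were -0.026 and -0.079. Chek1 was the 1 gene higher in all 4 pools, a pattern found in 8.49% of tested genes. Pool 4 held the widest range, from -1.78 for Blm to 0.88 for Rpa1. Its NAM/PN library had the most counts of the 8 (10163101) and the fewest genes detected (12483). It also had the lowest share of counts on a single ribosomal RNA gene (5.22%, against 9.09% to 18.7% in the other libraries). In pool 3, which had the largest median difference, the vehicle library had the highest share on that ribosomal RNA gene (18.7%, against at most 11.6% elsewhere), the lowest scaling factor (0.915) and the lowest mean log2 CPM of the 9 genes (5.29). The part of these properties in the values was not tested.

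**Figure D3:**
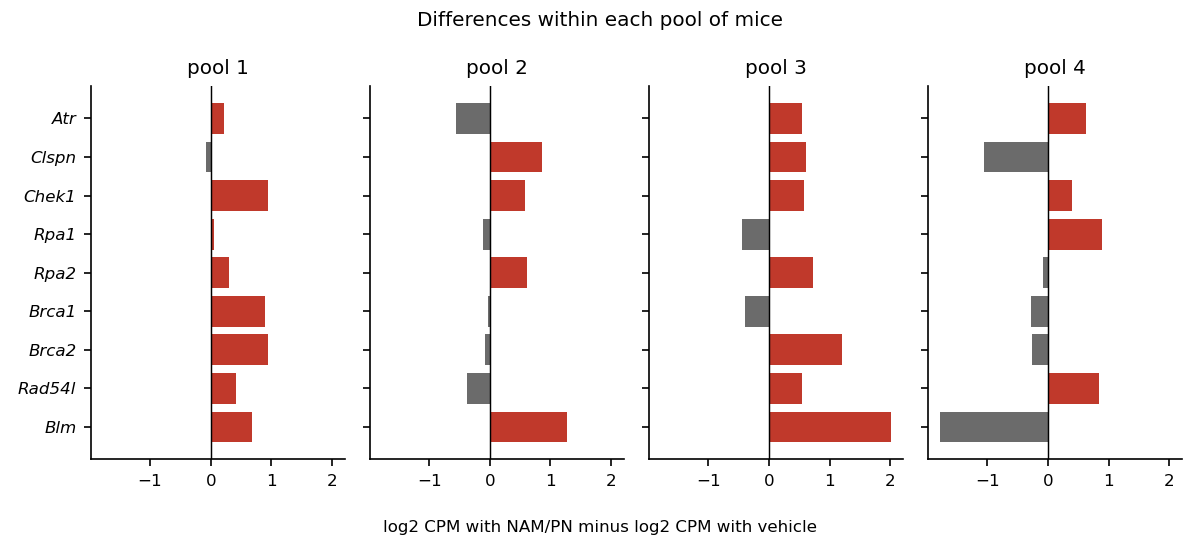
Log2 CPM with NAM/PN minus log2 CPM with vehicle (horizontal axis) for each of the 9 genes in each pool of mice, with positive differences in red and negative ones in grey. Pools 1 and 3 show mostly red bars (8 and 7 of 9), and pools 2 and 4 show 4 red bars each.

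Other genes of the same pathways also held 0 called genes in all 7 lists, and in 6 of the 7 most had estimates above 0. Across all tested genes 1.28% were called and 49.8% had estimates above 0. The genes named below are the 2 with the smallest p-values in each list. Of all tested genes, 8.49% were higher in all 4 pools and 2.79% were higher without overlap. Of the other ATR checkpoint genes, 24 of 25 were tested and 20 had a log2FC above 0, with a median of 0.28. The 2 with the smallest p-values were Tipin, of the fork protection complex, at 88.9 ± 14.6 CPM in vehicle libraries and 125 ± 22.2 CPM in treated libraries (log2FC 0.49, adjusted p = 0.406 in edgeR), and Rfc5, of the clamp loader, at 66.9 ± 2.11 CPM and 105 ± 53.6 CPM (0.65, adjusted p = 0.415 in edgeR; SD, n = 4 each). Tipin was higher in all 4 pools. Rfc5 was higher in 3 of 4 pools, with its highest value again in NAM/PN pool 4 (183 CPM), and its log2FC was 0.24 without that library.

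Of the other homologous recombination genes, 45 of 45 were tested and 27 had an estimate above 0, with a median of 0.21. Rmi2 encodes a subunit of the complex in which BLM resolves recombination intermediates. It was measured at 8.88, 15.4, 6.92 and 16.1 CPM in vehicle libraries and at 30.4, 22.7, 21 and 35.6 CPM in treated libraries. All 4 treated libraries were above all vehicle libraries, and the log2FC was 1.21 (SE 0.40, unadjusted p = 0.00738, adjusted p = 0.215 in edgeR), the smallest adjusted p of any gene in the 7 lists. Abraxas1, of a BRCA1 complex, had a log2FC of 0.52 (adjusted p = 0.748 in edgeR).

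Of 15 Fanconi anaemia genes, which act on DNA crosslinks, 14 were tested and 11 had an estimate above 0, with a median of 0.41. Fancm had means of 11 ± 5.49 CPM in vehicle libraries and 24.7 ± 15.4 CPM in NAM/PN libraries (log2FC 1.17, adjusted p = 0.455 in edgeR), and Faap24, its partner, had 5.79 ± 3.68 CPM and 15.5 ± 4.68 CPM (1.42, adjusted p = 0.470 in edgeR; SD, n = 4 each). Both were higher in all 4 pools. Among 29 replication fork genes, all tested, 26 had an estimate above 0, with a median of 0.27. Lig1, the replicative DNA ligase, was at 536 ± 72.2 CPM in vehicle libraries and 680 ± 18.7 CPM in treated libraries without overlap (log2FC 0.34, adjusted p = 0.465 in edgeR), and Mcm7, of the replicative helicase, had a log2FC of 0.37 (adjusted p = 0.480 in edgeR).

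The branch of the kinase ATM, which answers double-strand breaks, had 8 of 8 genes tested and 6 above 0, with a median of 0.12, and Atm and H2afx had log2FC values of 0.32 and 0.22 (adjusted p = 0.761 and 0.869 in edgeR). The end joining list, the alternative to recombination, was the 1 list with a median below 0 (-0.084, with 5 of 13 tested genes above 0). Lig4, the ligase of end joining, was at 35.1 ± 1.30 CPM in vehicle libraries and 22.5 ± 9.57 CPM in treated libraries (SD, n = 4 each), lower in all 4 pools (10.6% of tested genes) and without overlap (4.42%), with a log2FC of -0.65 (adjusted p = 0.613 in edgeR), while Parp1 had a log2FC of 0.38 (adjusted p = 0.553 in edgeR). Of 20 genes of G2 and mitosis, all tested, 15 were above 0, with a median of 0.063. Birc5 and Bub1 had log2FC values of 0.43 and 0.66 (adjusted p = 0.322 and 0.439 in edgeR) and were higher in all 4 pools.

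**Figure D4:**
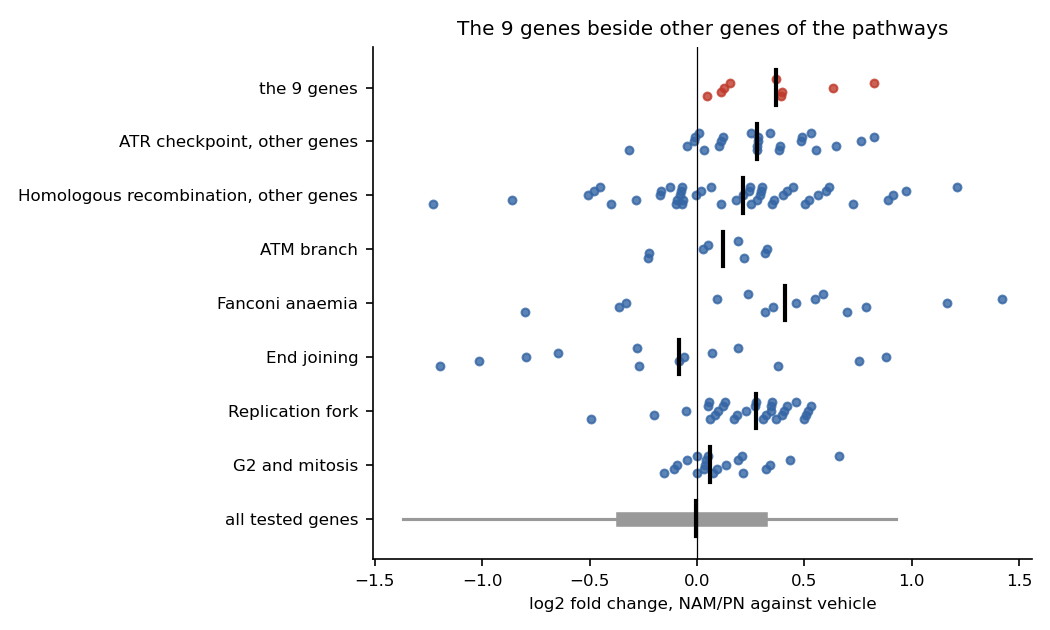
Log2FC with NAM/PN against vehicle (horizontal axis) of the tested genes of each list, 1 point per gene, with the list's median as a black line. The grey bar and line for all tested genes span the 25th to 75th and the 5th to 95th percentiles (-0.35 to 0.29 and -1.37 to 0.93), and the points of the 9 genes (red) lie between 0.05 and 0.82.

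The genes whose values across the 8 libraries were most like the average profile of the 9 genes, by Pearson correlation of log2 CPM among 9203 candidates, were Tmem50a (r = 0.967), Mmd (0.956), Adar (0.955), Sh2b3 (0.946) and 5031439G07Rik (0.943). These are descriptions over 8 libraries that share their sequencing and the treatment contrast. Mmd was the 1 of the 5 that rose with NAM/PN (log2FC 1.40, adjusted p = 0.00255 in edgeR).

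A feature that the choice of genes did not use is the sequence at their transcription starts. In the RefSeq windows of GRCm38.p6, from 250 bases before to 50 bases after each start, 6 of 9 genes held a match to an E2F motif, searched on both strands as TTCCCGC or TTGGCGC or TTCGCGC or TTGCCGC. Among all windows 9.571% held one, and among windows of tested genes 17.38% did. E2F factors are known regulators of S phase genes. The 30 bases around each match are shown to let the forms be compared, 5′ to 3′ on the strand of the gene, with the match in capitals.
Chek1: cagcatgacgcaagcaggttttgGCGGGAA
Clspn: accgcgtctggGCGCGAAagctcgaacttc
Rpa2: gctgtcccttcGCGGGAAggagtttgtggc
Brca1: gctagcgctagGCGCCAAgcggccggtttc
Brca2: tttaggccacaGCGGGAAacagacacacac
Blm: aatcatccttcTTGCCGCgcagagcgtgcg

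These stretches lie at chr9:36726609-36726638 (Chek1, minus strand), chr4:126556990-126557019 (Clspn, plus), chr4:132768312-132768341 (Rpa2, plus), chr11:101551916-101551945 (Brca1, minus), chr5:150522442-150522471 (Brca2, plus) and chr7:80535122-80535151 (Blm, minus). Chek1, Rpa2 and Brca2 shared the form GCGGGAA, the reverse complement of TTCCCGC. The matches of Chek1, Clspn and Brca1 began 44, 22 and 22 bases after the RefSeq start, and those of Rpa2, Brca2 and Blm began at -37, -168 and -142. RefSeq starts can differ from the GENCODE positions of the genes given above. In GENCODE the 5′ end of Chek1 was 36727065, so its stretch lay inside the gene, and the 5′ end of Blm was 80535119, next to its stretch. Atr, Rpa1 and Rad54l had no match, which says only that these letters are absent from these windows.

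The CCAAT motif, searched as CCAAT on both strands, was found in 6 of 9 windows (Clspn, Rpa1, Rpa2, Brca1, Rad54l and Blm), against 37.39% of all windows and 37.92% of those of tested genes. No E2F match of the 9 genes overlapped a CCAAT match. Rpa2 held the most, with 3, and its upstream stretch of 222 bases (chr4:132768110-132768331, plus strand) is shown because it holds both motifs, with CCAAT (here read as ATTGG) and E2F matches in capitals.
Rpa2: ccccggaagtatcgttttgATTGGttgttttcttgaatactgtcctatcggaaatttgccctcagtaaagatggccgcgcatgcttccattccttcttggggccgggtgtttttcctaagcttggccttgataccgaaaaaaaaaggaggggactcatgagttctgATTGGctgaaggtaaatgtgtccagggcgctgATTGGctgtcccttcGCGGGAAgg

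The CHR motif of G2 and mitosis genes, searched as TTTGAA or TTTAAA on both strands, was found in 0 of 9 windows, against 27.57% of all windows and 19.04% of those of tested genes. The estimates of genes with and without an E2F match overlapped and ran from 0.05 (Clspn) to 0.82 (Blm) with a match and from 0.13 (Rpa1) to 0.39 (Rad54l) without one.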

How the data were processed

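Aged mouse MuSCs with vehicle or NAM/PN were measured in 8 QuantSeq 3′ libraries made from 30 ng of RNA. For each gene the authors deposited whole-number read counts, without normalization or filtering. Per the study's methods, reads were demultiplexed with Bcl2FastQ and casava, aligned to GRCm38 with RNASTAR and counted with htseq-count (HTSeq 2.16.2 in the submitters' processing notes). The annotation release, the strand setting, the handling of reads with several positions and any removal of PCR duplicates are not given in the sources used here. Since the kit samples transcript ends, no division by length was made and levels were not compared between genes.

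Groups follow the treatment labels. Analyses used R 4.3.3 with edgeR 4.0.16, limma 3.58.1 and DESeq2 1.42.0, and figures used Python 3.11.15 with matplotlib 3.10.9. A filter on low counts (filterByExpr, minimum count 10, minimum total 15) kept 12060 genes. These were scaled with TMM factors and tested with glmQLFTest of edgeR without a block, and Benjamini-Hochberg adjusted p-values under 0.05 over the whole table were called. CPM are counts scaled to a common normalized library size, and 3 counts, taken as the floor of detection, were 0.295 to 0.464 CPM of the library total. Ratios of genes were compared with exact permutation tests on log2 CPM with a prior count of 2, which did not use the pools. Exact tests within pools gave p = 0.5 for Rpa2 to Rpa1, 0.375 for Chek1 to Atr, 0.5 for Brca2 to Brca1 and 0.875 for Blm to Rad54l. The smallest p that these could give is 0.125, so they cannot reach 0.05. Floors cover counting error only.

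Same-numbered libraries come from the same mice by their labels. Across genes, how far they lay from the mean of their condition correlated between -0.0332 and 0.0313 in the 4 pools, with a mean of 0.00033. The counts thus gave no sign of shared mice, and the differences within pools rest on the labels alone for their pairing. GENCODE M21 held 55227 of the 55487 identifiers, and all listed genes were matched by symbol. All 9 genes had a promoter window in RefSeq.

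The 9 genes and all lists were chosen with earlier results of these data known. Named beside the 9 genes were every called gene and the 2 smallest p-values of each of the 7 pathway lists, and the 5 genes (average log2 CPM 3 or more) most like the mean profile. In counts simulated for this comparison over 12060 genes, 62 of 100 genes changed 4-fold and 24 of 100 changed 2-fold were recovered, and 5 unchanged genes were called. Alternatives were the replicate block, DESeq2, other scalings, no filter on low counts, voom with quality weights, a robust fit, thinned counts, an adjusted p of 0.10 and leaving out each library. Leaving out each pool was added after the data were seen.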

Additional observations from a re-analysis of the deposited data

Results flagged for a closer look

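In 66 groups of 4 libraries, 6 held a library far from the other 3, by a gap to its nearest neighbour that was large against the group's whole range (Dixon's criterion). Chance flags about 1 in 20 groups, here 3.3. Among the 9 genes, Rpa2 was at 172 CPM in vehicle pool 4 against 109 to 119 CPM in the other vehicle libraries, and Brca1 was at 36.9 CPM in NAM/PN pool 1 against 17.4 to 20.4 CPM in the other treated libraries. The log2 ratio of Blm to Rad54l was -3.88 in NAM/PN pool 4 against -0.83 to -0.23 in the other treated libraries. Lig1 was at 708 CPM in NAM/PN pool 4 against 668 to 672 CPM, a gap that is large only against the closeness of those 3 values. The summed endothelial markers were at 11.8 CPM in vehicle pool 4 against 0 to 0.710 CPM, and at 10.7 CPM in NAM/PN pool 2 against 0 to 0.0934 CPM, with Cldn5, Emcn and Flt1 at 0 in all libraries. The cause of these differences was not tested.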

How the results depend on the processing

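Under all alternatives 0 of the 9 genes were called, and 0 genes of the 7 pathway lists. With the pool as a replicate block 156 genes were called in all (main value 154), Chek1 had a log2 fold change of 0.63 (adjusted p = 0.588 in edgeR), and no call among the 9 genes or the 7 pathway lists changed, while 8 in place of 7 markers of differentiating myocytes were called lower. The count of all called genes was 289 with DESeq2, 366 without a filter, 232 with voom and quality weights, 244 at an adjusted p of 0.10, and 80 to 177 with 1 library left out. Leaving out pool 1, 2, 3 or 4 gave 65, 42, 112 and 94. The genes without overlap between conditions were 1 to 2 of 9 with 1 library left out, 2 without pool 2 and 3 without pool 4, and with fewer libraries more of all tested genes were also higher without overlap. Chek1 and Rpa2 were so without vehicle replicate 4 (4.04% of tested genes), Chek1 and Blm without NAM/PN replicate 4 (4.83%), Chek1 and Rad54l without pool 2 (6.29%), and Chek1, Rpa2 and Blm without pool 4 (7.08%). With 1 library left out, the log2 fold changes of Atr, Clspn, Rpa1 and Brca1 ran from -0.012 to 0.37, from -0.13 to 0.26, from -0.079 to 0.25 and from -0.21 to 0.23. That of Clspn turned to -0.13, -0.048 and -0.054 without vehicle replicate 2, vehicle replicate 3 or NAM/PN replicate 3, and to -0.17 and -0.14 without pool 2 or 3. That of Atr was -0.012 without vehicle replicate 4, that of Brca1 was -0.21 without NAM/PN replicate 1 and -0.25 without pool 1, and that of Rpa1 was -0.079 without NAM/PN replicate 4 and -0.16 without pool 4. That of Brca2 was above 0 under its 20 alternatives, from 0.11 without pool 3 to 0.79 without vehicle replicate 2. With 1 library left out, the difference in the log2 ratio ran from 0.12 to 0.53 for Rpa2 to Rpa1, from 0.28 to 0.63 for Chek1 to Atr and from 0.17 to 0.78 for Brca2 to Brca1. That in the Blm to Rad54l ratio ranged from -0.19 to 1.03, with -0.017 and -0.084 without vehicle replicate 2 or NAM/PN replicate 2, and -0.19 without NAM/PN replicate 3. The cause of these turns was not tested. The count of the 9 genes at an unadjusted p under 0.05 was 0 to 2 with 1 library left out.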
